A study of Mus musculus with 30 samples.

Results

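Antigen presentation was followed in mouse quadriceps muscle through 10 genes: the class II chains H2-Aa, H2-Ab1 and H2-Eb1, the invariant chain Cd74, the class I light chain B2m, the class I heavy chains H2-K1 and H2-D1, the peptide transporter subunit Tap1, and the immunoproteasome subunits Psmb8 and Psmb9. A gene was kept if it had a row of its own in the deposited value table, and all 10 of 10 did, among 16475 entries tested. Each value is the intensity of 1 probe set per gene on an Affymetrix array, so it measures RNA from the whole muscle. Levels of different genes come from different probes and are not ranked against each other.

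The study asked how a high fat diet that brings on obesity and insulin resistance alters the RNA of skeletal muscle. All mice were male, the labels name no genetic alteration, and their strain is labelled C56BL/6J and given as C57BL/6J in the design. All ate a low fat (LF) diet during a run-in of 3 weeks that began at an age of 9 weeks. The LF day 0 group (n = 10) was killed at the end of the run-in, at 12 weeks of age. The LF day 56 group (n = 10) stayed on the LF diet for 56 days and the HF day 56 group (n = 10) ate a high fat (HF) diet for those 56 days, and both were killed at 20 weeks. Each array held RNA of 1 mouse. The time comparison therefore joins age and time on the LF diet, which cannot be told apart.

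Class I molecules are carried by nearly all nucleated cells. The proteasome cuts cytosolic proteins, and interferon exchanges its catalytic subunits for the immunoproteasome forms. The TAP transporter moves the peptides into the endoplasmic reticulum, where they bind a heavy chain paired with beta-2-microglobulin. Class II molecules are made mainly by dendritic cells, B cells and macrophages, and the invariant chain guides them to the endosome, where they take up peptides from engulfed material. Resting muscle fibres are known for low class I and little class II, so macrophages and other cells between the fibres are the usual class II source in this tissue. C57BL/6 mice transcribe H2-Eb1 but lack a working partner chain for it.

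The regulatory sequences just upstream of these genes are shown because both classes share elements there. The promoters of class II genes carry an X box, bound by RFX and CREB-family factors, followed by a Y box with a reversed CCAAT motif. Class I promoters carry the same module, named site alpha and enhancer B, beside an NF-kappa-B site and an interferon response element. In RefSeq's GRCm38.p6 table, 8 of the 10 members had a window, each taken as the 250 bases before the annotated start. The windows are printed from 5′ to 3′ on the strand of the gene, and capitals mark the letters of the motifs searched on both strands. These were the Y box CTGATTGG, the CCAAT core ATTGG that lies within it, the RFX motif GCAAC and the CRE motif TGACG of the X box and the interferon regulatory factor core AANNGAAA, and, in the H2-K1 and H2-D1 windows, the NF-kappa-B site. The class II windows were these.
H2-Aa (chr17:34287824-34288073, minus strand): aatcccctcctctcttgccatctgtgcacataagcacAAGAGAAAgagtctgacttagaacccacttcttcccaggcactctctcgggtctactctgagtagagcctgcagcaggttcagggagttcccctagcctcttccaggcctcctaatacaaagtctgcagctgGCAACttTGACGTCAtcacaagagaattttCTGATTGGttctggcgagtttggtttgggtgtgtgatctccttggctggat
H2-Eb1 (chr17:34305617-34305866, plus strand): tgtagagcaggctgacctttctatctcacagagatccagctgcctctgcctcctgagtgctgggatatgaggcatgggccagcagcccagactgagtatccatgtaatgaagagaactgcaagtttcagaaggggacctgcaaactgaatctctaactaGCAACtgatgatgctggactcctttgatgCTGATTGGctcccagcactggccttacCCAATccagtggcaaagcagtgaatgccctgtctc

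In the H2-Aa window the RFX motif began 81 bases before the start, the CRE motif 74 and the Y box 51, the X-then-Y order of a class II promoter. In the H2-Eb1 window an RFX motif began at 91 and the Y box at 62, with no TGACG between them. The windows of the class I chains and of the transporter subunit, printed to set beside the class II windows, were these.
B2m (chr2:122147437-122147686, plus strand): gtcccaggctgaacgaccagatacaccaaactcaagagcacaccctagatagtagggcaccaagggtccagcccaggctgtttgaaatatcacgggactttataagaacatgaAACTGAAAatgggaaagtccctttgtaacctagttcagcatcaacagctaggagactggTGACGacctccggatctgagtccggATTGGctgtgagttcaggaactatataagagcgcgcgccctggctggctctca
H2-K1 (chr17:34000348-34000597, minus strand): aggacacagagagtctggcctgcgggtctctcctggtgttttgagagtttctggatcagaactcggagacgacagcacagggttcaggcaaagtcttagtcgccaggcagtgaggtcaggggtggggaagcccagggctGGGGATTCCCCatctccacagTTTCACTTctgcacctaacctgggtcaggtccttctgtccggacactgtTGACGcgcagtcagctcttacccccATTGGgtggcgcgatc
H2-D1 (chr17:35262844-35263093, plus strand): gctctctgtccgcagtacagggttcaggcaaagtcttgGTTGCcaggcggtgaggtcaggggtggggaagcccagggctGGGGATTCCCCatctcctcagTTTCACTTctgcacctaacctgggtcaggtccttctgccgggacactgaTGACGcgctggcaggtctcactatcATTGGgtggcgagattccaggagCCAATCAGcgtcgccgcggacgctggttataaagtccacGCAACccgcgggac
Tap1 (chr17:34187306-34187555, plus strand): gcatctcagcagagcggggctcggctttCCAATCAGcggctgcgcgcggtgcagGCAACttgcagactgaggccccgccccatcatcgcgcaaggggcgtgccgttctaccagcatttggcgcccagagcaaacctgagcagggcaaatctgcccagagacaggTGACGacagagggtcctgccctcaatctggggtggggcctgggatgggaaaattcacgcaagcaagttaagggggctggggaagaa

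The H2-K1 and H2-D1 windows each held the NF-kappa-B site, an interferon regulatory factor core, TGACG and ATTGG in the same order. That site is the run of capitals that begins 111 bases before the start of H2-K1 and 171 before that of H2-D1. Of all 32851 windows of this length in the table, 10 (0.0304%) held the NF-kappa-B site. The site was searched as a string with every letter fixed, longer than any other motif, so its rarity cannot be compared with theirs. The bases around it are nearly the same in the H2-K1 and H2-D1 windows, so these matches are not independent. No conclusion is drawn from that share. The Y box was in 5 of the 8 member windows and in 3.83% of all windows, the CCAAT core in 7 and 33.8%, the RFX motif in 5 and 29.9%, and the CRE motif in 6 and 17.8%. The interferon regulatory factor core was in 4 windows and in 21.3% of all. The longer interferon response element was found only in B2m among the 8 (2.98% of all windows), and the gamma-activated sequence TTCNNNGAA only in Psmb8 (7.02%). Tap1 and Psmb9 are transcribed away from each other, and their windows share 225 bases, so a match in one is mostly a match in the other. A match is a string of letters and no evidence of binding. On chromosome 17 the RefSeq order of the members was H2-K1, Psmb9, Tap1, Psmb8, H2-Ab1, H2-Aa, H2-Eb1 and H2-D1. Psmb9, Tap1 and Psmb8 were consecutive protein-coding genes, as were H2-Ab1, H2-Aa and H2-Eb1, while B2m lies on chromosome 2 and Cd74 on chromosome 18.

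The muscle label held, with 11 of 11 muscle markers above an intensity of 20, a level used here to mark probes clear of the low end of the table. Array medians ran from 8.9 to 9.4. Immune cells were unevenly visible. Of the cells that carry class II, 8 of 14 macrophage markers were above 20 on at least 5 arrays. Against this stood 0 of 7 dendritic cell markers and 1 of 6 B cell markers. That 1 was Ighm, which exceeded 20 on all 30 arrays and reached 1573.1. Of T and NK cell markers 0 of 10 were above 20 on at least 5 arrays. The signal of labelling spike-ins and the level of a neutrophil gene cut across the groups. By the ratio of 5′ to 3′ signal of these spike-ins the arrays were cut into a set of 21 (7 per group) and a set of 9 (3 per group). The cut, called the labelling set here, was made from the values and not from a label. It lay at the widest gap, between -1.485 and -1.273 (log2), in ratios that ran from -2.163 to -1.024. The neutrophil gene S100a8 exceeded 100 in 7 LF day 0, 4 LF day 56 and 6 HF day 56 mice. Results for the members are therefore also given within these sets.

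No member passed the test in the diet comparison, but all 10 of 10 had a higher mean in HF day 56 than in LF day 56. The differences were small, from 0.05 to 0.16 on the log2 scale with a median of 0.127, which for B2m is 1.10-fold and for H2-Aa 1.03-fold. Over all 16475 entries, 4 (0.0243%), all of them higher, passed limma's test with Benjamini-Hochberg adjustment at 0.05, so 0 of 10 is near the background. The count of 4 depended on single mice: it was 15, 11, 10 and 8 without HF day 56 replicates 3, 9, 5 and 7, and 2 without any of 12 others, LF day 56 replicates 4 and 8 and HF day 56 replicates 1 and 10 not among them. At an unadjusted p below 0.05 the count was 1 member (B2m) of 10 and 841 entries, or 5.1%. Of all entries 51.5% were higher in HF day 56, with a median difference of 0.00289, and of the 6844 entries above 20 on at least 5 arrays 45% were higher, with a median of -0.0101. The members vary together across arrays, as described below, so their 10 directions are not 10 independent observations.

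**Figure D1:**
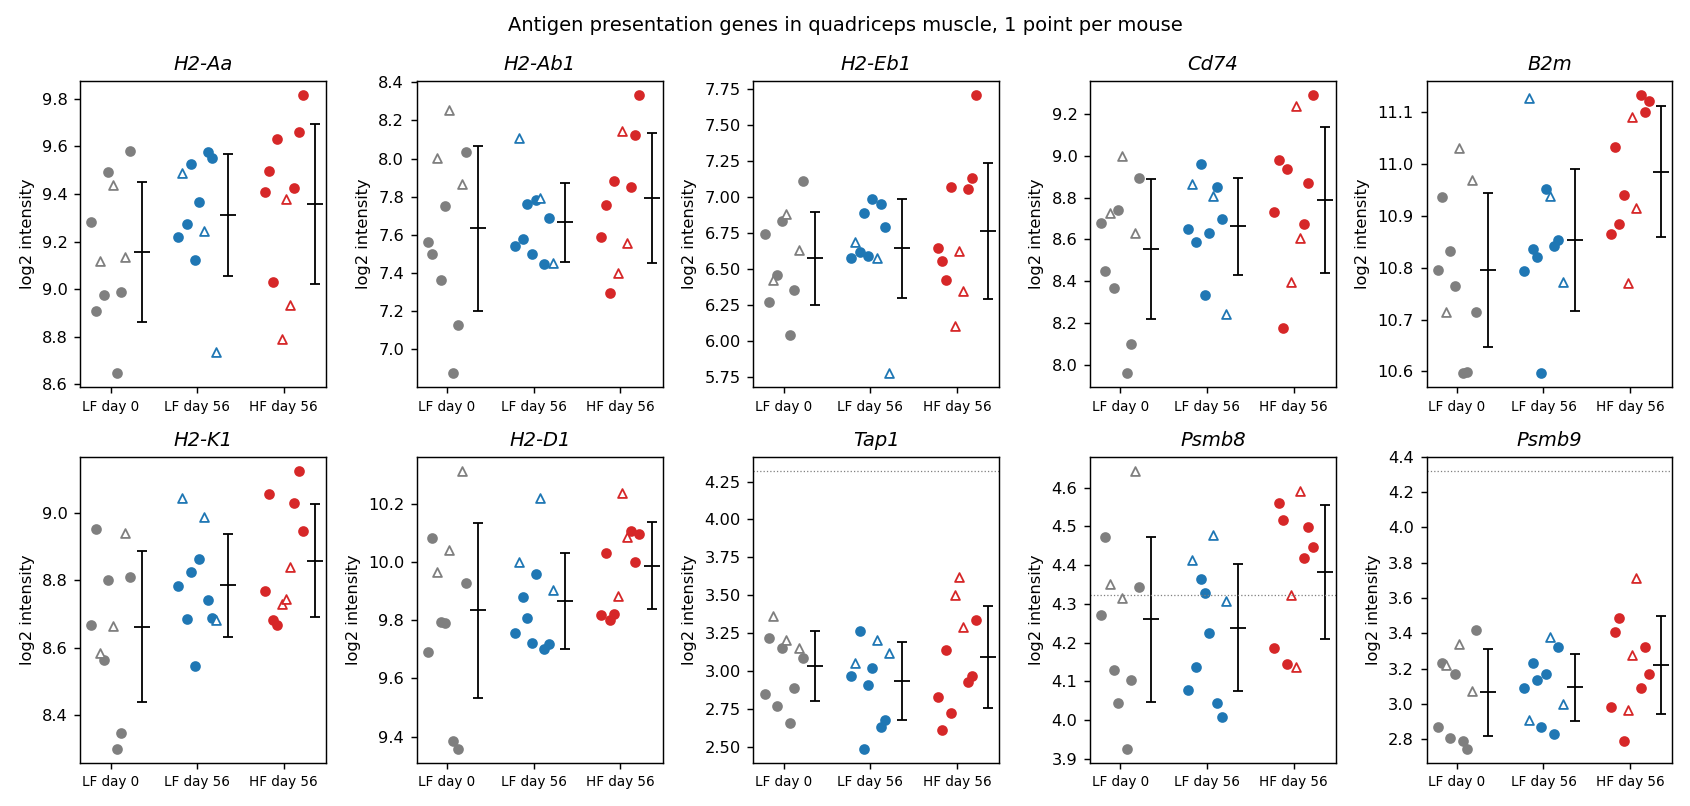
Log2 intensity of each member on every array, by group, with n = 10 mice per group; filled circles are the 21 arrays, open triangles the 9 arrays of the smaller labelling set, bars the mean ± SD, and the dotted line an intensity of 20. The groups overlap for all 10 genes, and Tap1 and Psmb9 stay below 20 on all 30 arrays.

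Among the class II chains, H2-Aa, which pairs with H2-Ab1 to form the I-A molecule, ranged in intensity from 400.8 to 766.4 with a median of 559 in LF day 0. It ranged from 426 to 762.5 with a median of 639 in LF day 56, and from 442.7 to 901.6 with a median of 684.3 in HF day 56. The 3 ranges overlapped almost wholly. The diet difference was 0.05 ± 0.13 (log2, SE), with a 95% interval of -0.21 to 0.31 and an adjusted p of 0.998 from limma. H2-Ab1, the I-A beta chain, lay between 117.4 and 305.2 (median 202.1) in LF day 0, between 174.5 and 276 (198.9) in LF day 56, and between 157.3 and 322.5 (223.2) in HF day 56. Its highest and lowest HF mice both lay outside the LF day 56 range. The diet difference of 0.13 ± 0.14 fell to 0.07 without HF day 56 replicate 10.

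H2-Eb1, the beta chain of I-E, had the widest spread of the members. It ran from 65.7 to 138.1 (median 93.45) in LF day 0, from 54.7 to 126.9 (100.75) in LF day 56, and from 68.8 to 209.6 (99.3) in HF day 56. The HF median was below the LF day 56 median although the mean of the log2 values was higher. That difference, 0.12 ± 0.16, came down to 0.02 without HF day 56 replicate 10 and was 0.20 without replicate 5. Replicate 10 had the highest value of its group for all 4 of H2-Aa, H2-Ab1, H2-Eb1 and Cd74.

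Cd74, the invariant chain that blocks the peptide groove until the endosome, ranged from 248.8 to 512.2 with a median of 403.45 in LF day 0. It ranged from 302.7 to 498 with a median of 407.95 in LF day 56, and from 289.3 to 626.8 with a median of 446.45 in HF day 56. In HF day 56, 7 of 10 mice were above the LF day 56 mean, and the difference was 0.13 ± 0.13 with an adjusted p of 0.998 from limma. It was 0.0714 without HF day 56 replicate 10 and 0.20 without replicate 3. Fewer cells of a type and less RNA per cell cannot be told apart in whole muscle, here or for any other member.

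B2m, the light chain shared by all class I molecules, varied least. It ranged in intensity from 1548.3 to 2092.5 (median 1758.55) in LF day 0, from 1549.1 to 2235.9 (1832.15) in LF day 56, and from 1746.6 to 2246.2 (2030.1) in HF day 56. In HF day 56, 9 of 10 mice exceeded the LF day 56 mean, though the ranges overlapped. The diet difference was 0.13 ± 0.06 with a 95% interval of 0.0034 to 0.26, an unadjusted p of 0.0446 and an adjusted p of 0.958 from limma. B2m ranked at 767 of the 16475 entries by p in this comparison.

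H2-K1, a classical class I heavy chain, ran from 315.1 to 495 (median 406.1) in LF day 0, from 374.1 to 528.6 (434.15) in LF day 56 and from 406.6 to 558.7 (446.95) in HF day 56. Its diet difference was 0.07 ± 0.08, with 5 of 10 HF mice above the LF day 56 mean, and was 0.0442 without HF day 56 replicate 9. H2-D1, the other classical heavy chain, ran from 656.2 to 1272.6 (930.95), from 831.7 to 1193.4 (918.75) and from 890.9 to 1205.4 (1034.5) in the same order of groups. Its diet difference was 0.12 ± 0.09, with 7 of 10 above. The lowest value of both genes was highest in HF day 56, but all ranges overlapped. Class I heavy chains are near-identical copies of each other, so signal of relatives on these probe sets cannot be separated.

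The transporter and immunoproteasome probes were dim. Tap1, which loads peptides into the endoplasmic reticulum, lay between 5.6 and 12.3 on all arrays, with medians of 8.7 in LF day 0, 7.95 in LF day 56 and 8.3 in HF day 56. Psmb9, the immunoproteasome subunit beta1i, lay between 6.7 and 13.1, with medians of 8.7, 8.65 and 9.35. Neither exceeded 20 on any of 30 arrays, so near-background signal limits what their differences can show. Psmb8, the subunit beta5i, ran from 15.2 to 25 (19.6), from 16.1 to 22.3 (19.25) and from 17.6 to 24.1 (21.6), and exceeded 20 on 4, 4 and 6 arrays. Diet differences were 0.16 ± 0.12 for Tap1, 0.13 ± 0.10 for Psmb9 and 0.14 ± 0.08 for Psmb8, whose unadjusted p was 0.088 and adjusted p 0.998 in limma. That of Tap1 was 0.103 without HF day 56 replicate 6, and that of Psmb9 0.0715 without replicate 7.

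The intervals bound what was missed. The upper 95% limits of the diet difference ran from 0.24 for H2-K1 to 0.46 for H2-Eb1, so larger mean rises lay outside the interval of each gene. The lower limits ran from 0.0034 for B2m to -0.21 for H2-Aa.

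**Figure D2:**
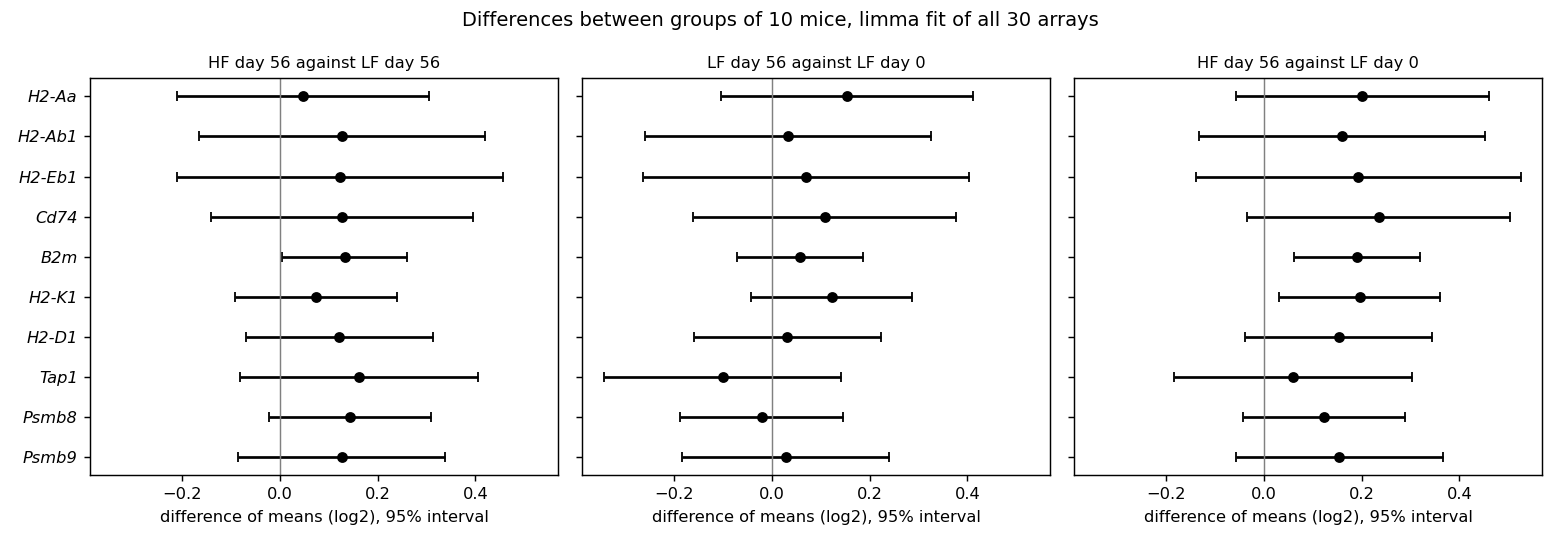
Log2 difference of each member in the 3 comparisons, with 95% intervals from limma over 30 arrays. All 10 points lie above 0 for HF day 56 against LF day 56, and among them the interval of B2m alone leaves out 0.

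Over the 56 days on the LF diet the median member difference was smaller than between diets, though those of H2-Aa and H2-K1 were larger. No member passed in LF day 56 against LF day 0, where 140 entries (0.85%) did, 37 higher (0.225%) and 103 lower (0.625%). The means of 8 of the 10 were higher at day 56, with a median difference of 0.0451, against 50.4% of all entries and a median of 0.000886. At an unadjusted p below 0.05 there were 0 members and 1668 entries (10.1%). The differences ran from -0.10 ± 0.12 for Tap1 and -0.02 ± 0.08 for Psmb8 to 0.12 ± 0.08 for H2-K1 and 0.15 ± 0.13 for H2-Aa. Without LF day 0 replicate 7 the difference of H2-Aa was 0.0972 and that of Cd74 0.0415, from 0.11. In H2-K1, 9 of 10 day 56 mice were above the day 0 mean (adjusted p = 0.653, limma). Over the same interval the means of 6 of 6 leukocyte markers were lower (median -0.378, none passing) and those of 10 of 10 neutrophil markers were lower (median -1.95, none passing). Endothelial markers were lower in 10 of 10 (median -0.222), of which the junction protein Cldn5 passed, and adipocyte markers were higher in 5 of 5 (median 0.576, none passing). The class II members did not share the direction of the leukocyte, neutrophil and endothelial markers, with means higher in 4 of 4. Macrophage markers were split, 7 higher and 7 lower (median -0.00367, none passing). With a leukocyte marker score in the model, 9 of 10 members were higher, with a median of 0.113, and 0 passed.

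HF mice at day 56 set against the starting group differed by both age and diet, and here the median difference was wider. All 10 means were higher, by 0.06 to 0.23 with a median of 0.175, and again 0 of 10 passed, against 262 of all entries (1.59%), of which 129 (0.783%) were higher and 133 (0.807%) lower. At an unadjusted p below 0.05 there were 2 members and 1815 entries (11%). In all, 51.1% of entries were higher, with a median of 0.00238. B2m differed by 0.19 ± 0.06 (95% interval 0.06 to 0.32, 9 of 10 above, unadjusted p = 0.00512, adjusted p = 0.157 in limma). H2-K1 differed by 0.20 ± 0.08, with 10 of 10 HF mice above the LF day 0 mean (adjusted p = 0.323, limma). Cd74 differed by 0.23 ± 0.13 (adjusted p = 0.552, limma), H2-Aa by 0.20 ± 0.13 and H2-Eb1 by 0.19 ± 0.16. The 3 comparisons share groups pairwise, so their values are not separate evidence.

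The labelling set bore on these values. Across it, H2-D1 was higher by 0.25 ± 0.07 (adjusted p = 0.0089, limma) and Tap1 by 0.37 ± 0.08 (adjusted p = 0.0013, limma) on the 9 arrays, while the other 8 members did not pass and 23.1% of all entries did. Since each group held 7 and 3 arrays of the sets, this shift cancels in the group differences. Within the 21 arrays, the diet differences were higher in 10 of 10 members with a median of 0.163, and those of HF day 56 against LF day 0 in 9 of 10 with a median of 0.262. In the latter, 8 of 10 members and 1636 of the 16475 entries had an unadjusted p below 0.05. No member passed, with B2m at 0.26 ± 0.07 and an adjusted p of 0.0623 in limma. Within the 9 arrays, 5 of 10 diet differences were higher, with a median of -0.00368, and 4 of 10 against LF day 0, with a median of -0.0399. On these arrays 0 members and 1323 entries had an unadjusted p below 0.05 in HF day 56 against LF day 0. The difference between the sets was itself tested as an interaction, a test chosen after the data were seen. It passed for no member, with adjusted p of at least 0.999 (limma) in each of the 3 comparisons. It also passed for 0 of all entries, so 0 of 10 is the same as the background. Among the members, only H2-Ab1, H2-Aa and H2-Eb1 had an unadjusted p below 0.05, all in HF day 56 against LF day 0.

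**Figure D3:**
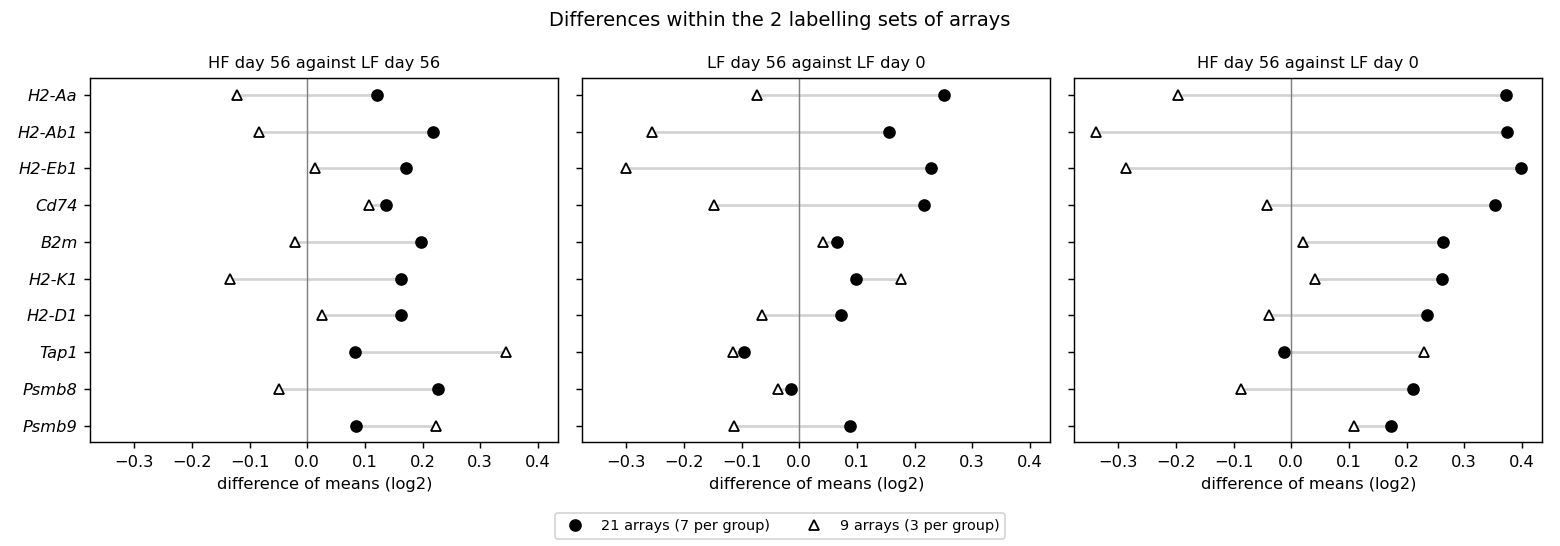
Difference of group means (log2) of each member within the 21 arrays (filled circles, 7 per group) and within the 9 arrays (open triangles, 3 per group), for the 3 comparisons; a grey line joins the 2 values of a gene and no error is drawn. The diet differences all lie above 0 on the 21 arrays and are split 5 to 5 on the 9 arrays.

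While group means differed little, single mice differed more, and the members moved in blocks. The standard deviation of the log2 level within groups was 0.297 for H2-Aa, 0.338 for H2-Ab1, 0.386 for H2-Eb1 and 0.31 for Cd74. Those values stood between percentiles 82.6 and 92 of the 6844 entries above 20, whose median was 0.19. B2m, at 0.138, stood at percentile 25.4, H2-K1 (0.183) at 47.2 and H2-D1 (0.216) at 60.4. Leading arrays were shared: LF day 0 replicate 7 was lowest of its group in all 4 class II members, and HF day 56 replicate 10 highest in all 4.

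Correlations between members were computed over 30 arrays with group means removed, by permuting within groups, and adjusted over the 45 pairs. The r given for the 21 or the 9 arrays, or without 2 arrays, kept these deviations from the 30-array group means. Group differences that remain within those arrays therefore enter such r, which is not purely between mice of a group. By Pearson's r 23 pairs passed and by Spearman's rho 25, and 0 of those were negative. All 6 pairs within class II passed, with r from 0.674 to 0.914. H2-Aa and H2-Eb1, whose windows are printed above, reached r = 0.914 and rho = 0.882 (adjusted permutation p = 0.000193). Cd74 and H2-Ab1, on different chromosomes, reached r = 0.873 and rho = 0.837. The class II range was 0.804 to 0.911 on the 21 arrays, 0.889 to 0.974 on the 9, and 0.639 to 0.881 without the 2 arrays farthest from the median.

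**Figure D4:**
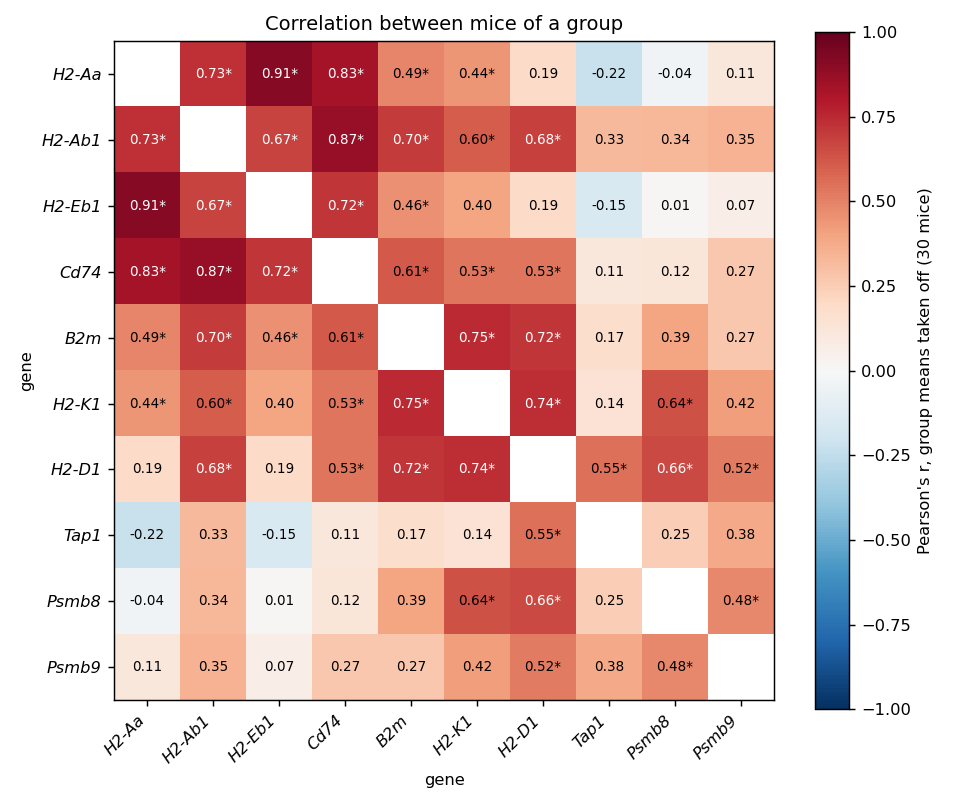
Pearson's r between the members over 30 arrays after removing group means, coloured from -1 to 1. The class II block (H2-Aa, H2-Ab1, H2-Eb1, Cd74) and the class I block (B2m, H2-K1, H2-D1) stand out, while Tap1, Psmb8 and Psmb9 stay between -0.222 and 0.35 with class II.

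B2m, H2-K1 and H2-D1 formed a second block, with all 3 pairs passing and r from 0.717 to 0.746 (0.79 to 0.862 on the 21 arrays and 0.655 to 0.694 on the 9). The light chain moved with heavy chains encoded on another chromosome. Between the classes 9 of 12 pairs passed, with r from 0.19 to 0.70 over all arrays, from 0.411 to 0.712 on the 21 and from 0.285 to 0.877 on the 9. H2-Ab1 with B2m gave r = 0.70 (rho = 0.647). H2-Aa with H2-D1 gave r = 0.191 (rho = 0.115) over all arrays, which did not pass, but 0.411 on the 21 arrays and 0.594 on the 9. H2-Eb1 with H2-D1 likewise gave 0.19 (rho = 0.137) over all arrays, 0.465 on the 21 and 0.672 on the 9. On the 9 arrays the mean of H2-D1 was higher by 0.25 and those of H2-Aa and H2-Eb1 differed by -0.19 and -0.30, the latter without passing.

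Over all arrays, Tap1, Psmb8 and Psmb9 passed with 0 of 12 class II pairs and 4 of 9 class I pairs. The class II pairs had r from 0.0119 to 0.381 on the 21 arrays and from -0.248 to 0.307 on the 9. Within LF day 0 the r of these 12 pairs ran from 0.241 to 0.852. Their r ran from -0.588 to 0.508 in LF day 56 and from -0.429 to 0.0744 in HF day 56. Whether these r differ between groups was not tested. Psmb8 correlated with H2-D1 at r = 0.66 (rho = 0.568) and with H2-K1 at r = 0.64 (rho = 0.597), and on the 9 arrays at 0.49 and 0.771. By group, Psmb8 with H2-D1 gave 0.876 in LF day 0, 0.711 in LF day 56 and 0.142 in HF day 56. Psmb8 with H2-K1 gave 0.761, 0.497 and 0.569 in the same order. Without the mice with S100a8 above 100, r was 0.594 with H2-D1 and 0.329 with H2-K1. Psmb9 correlated with H2-D1 at r = 0.519 (rho = 0.522). Tap1 with H2-D1, at r = 0.551 (rho = 0.615), did not keep its sign within both labelling sets (0.434 on the 21 arrays and -0.248 on the 9), and these were the 2 members that differed between the sets. Psmb8 and Psmb9 had r of 0.523 in LF day 0, -0.0011 in LF day 56 and 0.754 in HF day 56. Over all arrays they gave r = 0.477 (rho = 0.513), which passed. Tap1 and Psmb9, whose upstream windows overlap, gave r = 0.376 (rho = 0.4, adjusted permutation p = 0.0941 for r), which did not. Both lie near background.

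**Figure D5:**
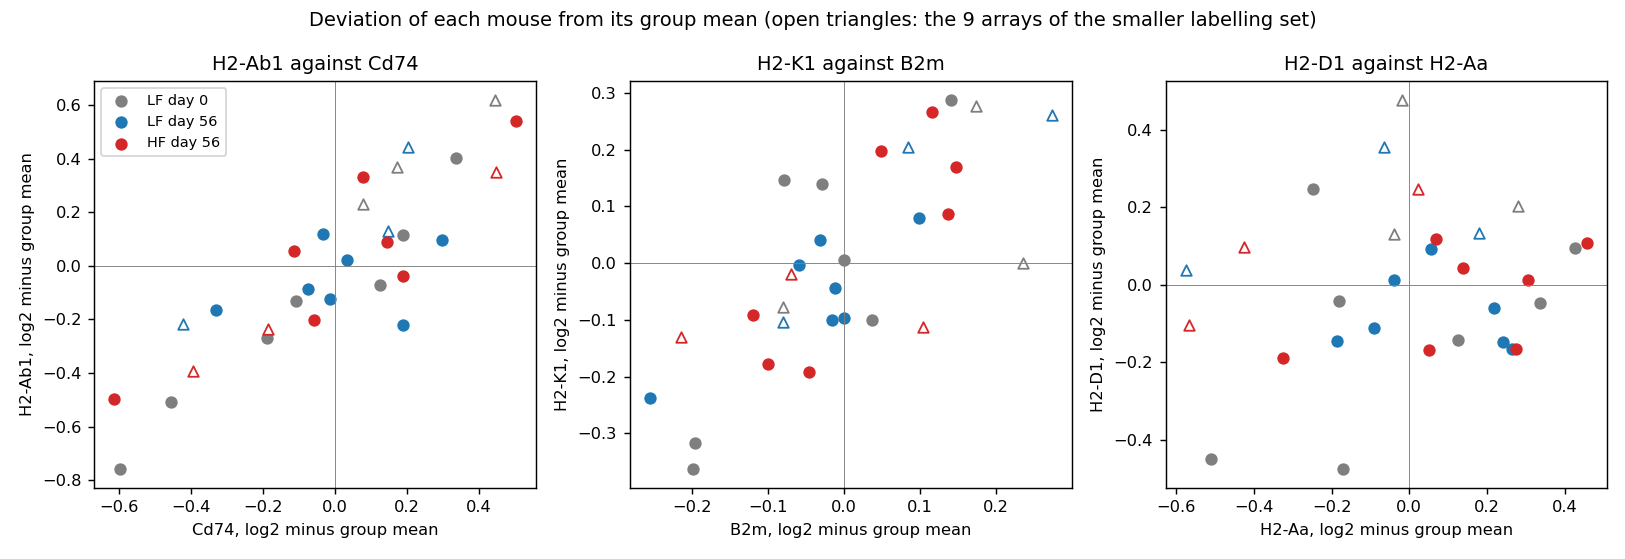
Deviation of each mouse from its group mean (log2), 1 point per mouse (n = 30), for H2-Ab1 against Cd74, H2-K1 against B2m and H2-D1 against H2-Aa; open triangles are the 9 arrays of the smaller labelling set. The first pair follows a band (r = 0.873), the second a wider one (r = 0.746), and the third has r = 0.191 over all arrays but 0.411 among the circles and 0.594 among the triangles, which lie mostly above the circles.

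Cd74, taken as the class II member, and B2m were set against summarised marker lists, 20 relations in all. Cd74 moved with the macrophage markers. Its r was 0.759 (rho = 0.72, adjusted permutation p = 0.0004), 0.758 on the 21 arrays, 0.881 on the 9, and 0.683 without the 2 arrays farthest from the median. Leukocyte markers gave r = 0.533 (rho = 0.542, adjusted permutation p = 0.0443) and adipocyte markers r = 0.506 (rho = 0.44, adjusted permutation p = 0.0446, and 0.0972 by rho). Dendritic cell markers, all near background, gave 0.381 (rho = 0.354, adjusted permutation p = 0.129), and neutrophil, endothelial and muscle markers did not pass. For B2m the adipocyte markers passed, with r = 0.531 (rho = 0.605, adjusted permutation p = 0.0145), and macrophage markers did not (r = 0.412, rho = 0.338, adjusted permutation p = 0.0832).

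Summed macrophage marker intensity ran from 644.7 to 1684.8 in LF day 0, from 779 to 1409.1 in LF day 56 and from 661.5 to 1803.4 in HF day 56. Between diets 11 of 14 of these markers were higher (median difference 0.0847), as were 6 of 6 leukocyte (0.255), 10 of 10 neutrophil (1.08) and 5 of 5 adipocyte markers (0.535), none passing. With the leukocyte score in the model the median diet difference of the members was 0.069, 9 of 10 being higher, and that of Cd74 was 0.05 ± 0.12. Adipocyte markers were higher in HF day 56 against LF day 0 in 5 of 5, and 4 passed. The adipokine Adipoq, 1 of those 4, rose by 1.11 ± 0.20 (adjusted p = 0.0016, limma). The part of cell content in the member differences was not tested beyond these values.

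Of the 6209 other named entries with a median of at least 20, the 8 whose pattern over the 30 arrays was most like the class II mean had r from 0.757 to 0.858. They were Retnla (0.858), a secreted product of alternatively activated macrophages, the lipid transfer protein Pltp (0.819), Tgfbi (0.791), the intermediate filament Vim (0.787), the collagen Col3a1 (0.783), the matrix protein Dpt (0.776), the complement subunit C1qb (0.771), and Ctss (0.757), the protease that trims the invariant chain. Their r ran from 0.708 to 0.855 on the 21 arrays and from 0.788 to 0.933 on the 9. The 8 most like the mean of the other 6 members were a different set of names: Reep5 (0.804), Slc6a6 (0.785), 9530068E07Rik (0.779), Ankrd23 (0.772), Mtch1 (0.76), Fmc1 (0.735), Art1 (0.735) and Magix (0.731). On the 9 arrays their r fell to between 0.0331 and 0.701. The mean of those 6 members includes Tap1 and Psmb9, which lie near background.

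The other genes of the pathway were examined through 4 lists. In the diet and the time comparison 0 genes of any list passed. Of 15 class II partners measured, the subunits of H2-O, which modulates class II peptide editing, H2-Oa (0.13 ± 0.07) and H2-Ob (0.11 ± 0.06) had the smallest p for diet, and reached at most 5.2 and 4 in intensity on any array. Rfxap, a subunit of the RFX complex that binds the X box, differed by -0.19 ± 0.09 between day 56 and day 0 on the LF diet (adjusted p = 0.426, limma), and 0 of 10 day 56 mice were above the day 0 mean. Rfx5, the DNA-binding subunit, differed by 0.22 ± 0.14. Ciita, the coactivator that switches on class II genes, reached at most 4.8 on any array, and Ifng, its best known inducer, at most 4.9. No difference in either can be read at those levels.

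Of 11 class I partners measured 1 passed, in HF day 56 against LF day 0 only, where 1.59% of all entries did. In that comparison 6 of the 11 were higher and 5 lower, with a median of 0.0396. Cd1d1, a class I-like molecule that pairs with B2m and presents lipids, ranged in intensity from 9.6 to 19.5 (median 12.3) in LF day 0, from 13.5 to 30.6 (15.45) in LF day 56 and from 12.8 to 87.3 (24.9) in HF day 56. In HF day 56, 6 mice exceeded 20, against 1 and 0 in LF day 56 and LF day 0, though the ranges overlapped. It rose by 1.09 ± 0.25 (adjusted p = 0.0138, limma), and differed between diets by 0.77 ± 0.25 (adjusted p = 0.573, limma). With only these 2 groups fitted the difference was the same and its adjusted p 0.0546. On the 9 arrays it was 0.53 ± 0.22 (adjusted p = 0.575), and without the mice with S100a8 above 100 it was 1.27 ± 0.51 (adjusted p = 0.604), all in limma. The chaperone Canx differed by 0.13 ± 0.07 for diet and -0.01 ± 0.07 for time, and the chaperone Calr by 0.0045 ± 0.10 and 0.19 ± 0.10.

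Of 7 proteasome partners, which include the immunoproteasome activator subunits, none passed in any comparison. Psme2, of the interferon-inducible activator, differed by -0.19 ± 0.15 for diet and 0.22 ± 0.15 for time, Psme3, a nuclear activator, by -0.08 ± 0.09 for diet, and the assembly factor Pomp by -0.08 ± 0.04 for time. Of 24 interferon pathway genes 1 passed, in HF day 56 against LF day 0, where 1.59% of all entries did. Jak2, a kinase of the interferon gamma receptor, ranged from 249.4 to 393.3 (median 290.2) in LF day 0, from 225.2 to 343.5 (260.25) in LF day 56 and from 205.3 to 257.7 (235.45) in HF day 56. It fell by 0.37 on the log2 scale (SE 0.08) in HF day 56 against LF day 0 (adjusted p = 0.00517, limma), where the ranges met between 249.4 and 257.7. The diet difference was -0.20 ± 0.08 and the time difference -0.17 ± 0.08, neither passing. On the 9 arrays the difference was -0.22 ± 0.10 (adjusted p = 0.644, limma), and without the mice with S100a8 above 100 it was -0.34 ± 0.12 (adjusted p = 0.537). For diet 13 of the 24 were higher and 11 lower, with a median of 0.021. For time 8 were higher and 16 lower, with a median of -0.0782.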

How the data were processed

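RNA of 30 quadriceps samples, 1 per mouse, was hybridised to Affymetrix arrays. The authors' deposited values are intensities, 1 per gene and array, made with GCRMA per the submitters' processing notes. That the scale is linear was read from the values (1.2 to 30599), and the array build is not given in the sources used here. Of 16539 entries, 64 control entries were left out. Of the 16475 tested, 15780 had 1 gene symbol, 695 had none and 0 had several, and 15752 matched RefSeq. Values were taken to log2 with a pseudocount of 0 and fitted with limma 3.58.1 (R 4.3.3), all 30 arrays, group as the only term, with Benjamini-Hochberg adjustment over all entries at 0.05. Groups and replicate numbers come from the labels. Background adjustment by GCRMA compresses low values toward a common floor, which bears on Tap1 and Psmb9. Correlations used 100000 permutations within groups (scipy 1.17.1). On the 9 arrays the permutations allow only 216 orders. For members, marker lists and most alike entries, r on part of the arrays used deviations from the group means over all arrays. Only for the counts of passing pairs on part of the arrays were group means taken off again within it.

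The code was tested on simulated data. The array set of 21 against 9 was cut where 4 spike-in probe set pairs left the largest gap in their ratio of 5′ to 3′ signal. Members and gene lists were chosen with earlier results of these data known. Named were all members, each partner gene that passed and otherwise the 2 of smallest p per list for diet and for time, and the 8 entries most like each block. Marker genes were named where they passed. Canx, Calr, Ciita and Ifng were added after their values were seen. Of the 2 upstream windows listed for H2-K1 the first was used. The mice count as replicates. Arrays carry no read depth, so their number limits precision.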

Additional observations from a re-analysis of the deposited data

Results flagged for a closer look

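In 30 checks, 1 per member and group of 10 mice, the gap between an extreme mouse and its nearest neighbour was set against the range of the group. Gap and range were both taken on the log2 scale, and chance alone marks about 1 group in 20. H2-Ab1 in LF day 56 stood out through replicate 2, at an intensity of 276 against 222 for the next mouse, a gap of 0.475 of the range. H2-Eb1 in LF day 56 stood out through replicate 10, at 54.7 against 95.2, a gap of 0.658 of the range. Both mice are on the set of 9 arrays.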

How the results depend on the processing

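The members passing the test were 0 of 10 in each comparison under every alternative, with a lowest adjusted p of 0.0623 in limma. Some of the 12 alternatives leave each difference as it was and change only its error, so they could not reverse it. They were the fits of only the groups compared, with a trended robust prior and among entries above 20. The fits with the replicate number or the labelling set as a block were others. With these counted in, of 354 member differences under 12 alternatives 329 kept their direction and 25 reversed, most on the 9 arrays, where each group has 3 mice. On those arrays the diet difference was -0.12 for H2-Aa, -0.0832 for H2-Ab1, -0.0205 for B2m, -0.13 for H2-K1 and -0.0496 for Psmb8. The time difference was -0.0740 for H2-Aa, -0.26 for H2-Ab1, -0.30 for H2-Eb1, -0.15 for Cd74, -0.0651 for H2-D1 and -0.11 for Psmb9. HF day 56 against LF day 0 gave -0.20 for H2-Aa, -0.34 for H2-Ab1, -0.29 for H2-Eb1, -0.0412 for Cd74, -0.0387 for H2-D1 and -0.0862 for Psmb8. On the 21 arrays Tap1 was -0.0132 in that last comparison. Without the mice with S100a8 above 100 the time difference was -0.0576 for H2-Aa, -0.11 for H2-Eb1, 0.0809 for Tap1 and 0.17 for Psmb8. With the leukocyte score it was 0.0149 for Psmb8, and the diet difference of H2-Aa was -0.0241. With quantile normalization the time difference of Psmb8 was 0.0101. Leaving out 1 mouse at a time reversed 16 of 600 values: the diet difference of H2-Aa ran from -0.0163 to 0.11, and the time differences ran from -0.0521 to 0.10 for H2-Ab1, -0.0219 to 0.0843 for H2-D1, -0.0583 to 0.0215 for Psmb8 and -0.0078 to 0.0672 for Psmb9. The cause was not tested. Tap1 and Psmb9 have no value among entries above 20.

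Over all entries, the 4 diet calls became 0 with only the 2 groups fitted (799 at an unadjusted p below 0.05), 8 with a trended robust prior, 8 among entries above 20, 7 with a pseudocount of 16, 0 on the 21 arrays (835 unadjusted), 0 on the 9 (782) and 0 without the S100a8-high mice (728), and 2 to 15 leaving out 1 mouse. The 140 time calls became 214 with the labelling set as a block, 47 on the 21 arrays, 11 on the 9, 88 with a neutrophil score and 13 without the S100a8-high mice, and 102 to 155 leaving out 1 mouse. The 262 calls of HF day 56 against LF day 0 became 134 on the 21 arrays, 0 on the 9 (1323 unadjusted) and 6 without the S100a8-high mice, and 214 to 271 leaving out 1 mouse. Of the 23 passing member pairs, 0 passed on the 9 arrays. The number of passing pairs was 16 on the 21 arrays and 17 without the S100a8-high mice.

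Same-numbered mice of different groups are different animals and were not treated as pairs. Over 30 such pairs the correlation of deviations ran from -0.40 to 0.40, and 8 exceeded 0.1. The median was -0.07, against -0.018 for pairs of unlike number. A shared cage or order of handling was not tested. With the replicate number as a block, 1 entry was called for diet, 104 for time and 209 for HF day 56 against LF day 0, with 0 members in each.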
